A study of Mus musculus with 8 samples.

Results

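The genes described here encode the subunits, assembly chaperones, activators and inhibitor of the proteasome. They were taken by symbol, as every probe of the platform annotation whose gene symbol begins with Psma, Psmb, Psmc, Psmd, Psme, Psmf or Psmg and a digit, except Psmb8 and Psmb9. Of 24613 probes, 62 carried such a symbol, and 47 of these lay above noise on at least 2 arrays. They stand for 38 genes among the 10187 items tested. Of 45 genes with a matching symbol, 7 had no probe above noise on 2 arrays: Psma5, Psma6, Psmb11, Psmc6, Psmd6, Psmd11 and Psmg4. The symbol rule also took in Psmc3ip, a recombination cofactor, and Psme3ip1, a protein that binds an activator, which are no proteasome subunits. Both are included in the counts over 38 members and were classed apart from the subunits.

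RNA from 8 samples was hybridised to Illumina mouse beadchips, 2 arrays in each of 4 groups. Groups are given here as labelled. They were IRAK4 kinase-inactive knock-in (KI) cells given acLDL, KI cells left untreated, wild type (WT) cells given acLDL, and WT cells left untreated. All came from female mice of strain 129/BL6 and are labelled as macrophages grown from bone marrow for 5 days in medium conditioned by L929 cells. Acetylated low-density lipoprotein (acLDL), a chemically changed lipoprotein that cells take in through scavenger receptors, was given at 100 ug/ml for 24 hours, and IRAK4 is a kinase downstream of the Toll-like receptors and the receptor for interleukin-1. The labels do not say whether the 2 samples of a group are from separate cultures or animals. The p-values therefore reflect only how far these samples spread, and that spread may be technical.

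The markers did not match the label of cultured macrophages alone. Lung epithelium genes were among the brightest markers on all 8 arrays, with Sftpd at a mean log2 intensity of 15.23 and Scgb1a1 at 14.93. Which tissue or cells the RNA came from was not tested. Of 9 lung epithelium markers, 8 were above noise on all 8 arrays, with Sftpc, a surfactant protein gene, at a log2 intensity of 15.19 ± 0.13 (SD, n = 8). Of 9 macrophage markers on the array, 6 were above noise on all 8 arrays, among them Lyz2 at 14.46 and Sirpa at 12.49, while Marco was above noise on 6 arrays and Itgam and Fcgr1 on none. All 4 endothelial markers were above noise on all 8 arrays, with Cldn5 at 14.05, and the red cell gene Hba-a1 lay at 15.61. KI, WT, acLDL and untreated therefore stand for the labels of the arrays. Irak4 was not analysed here, so the genotype labels have no check of their own. Between 11026 and 11033 probes lay above the noise limit of 36.7 intensity units on each array. Such near-equal counts follow from the quantile normalization inferred below and are no check of the arrays. Across genes, the 2 arrays of a group correlated at 0.982 to 0.986, and for 3 of 8 arrays the closest other array was of the same group.

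The proteasome degrades proteins tagged with ubiquitin. Its core particle stacks rings of alpha subunits (Psma genes), which gate the entrance, on rings of beta subunits (Psmb genes), a few of which cut peptide bonds. A regulatory particle caps the core: its base holds a ring of ATPases (Psmc genes) that unfold the substrate, and its lid (several Psmd genes) removes the ubiquitin chain. The subunits assemble in fixed proportions, and when proteasome activity is low the transcription factor NRF1 (gene Nfe2l1) raises their transcription through antioxidant response elements. In macrophages the proteasome takes part in NF-kB signalling and cuts peptides for display to T cells.

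The promoters of the members were read from RefSeq on the mouse assembly GRCm38.p6, as the 200 bases before each gene start, and 32 of 38 members matched an entry. Both strands were searched for an antioxidant response element (TGACNNNGC), a CCAAT box (CCAAT) and an ETS site (CCGGAAG), none of which contains another. The antioxidant element was found in 3 of 32 member promoters, in Psmb5, Psmb6 and Psmd9. That is 9.4%, against 10.2% of the 7091 tested genes with a promoter entry and 8.6% of all 32851 promoters of this length. The CCAAT box was in 12 of 32 (37.5%), against 31.8% of the tested genes and 29.3% of all promoters. The ETS site was in 9 of 32 (28.1%), against 12.0% of the tested genes and 6.3% of all promoters. Psmc3ip is among the members counted for both of these motifs. A match is a string of letters and not a shown binding site.

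Psme4 and Psmd13 are shown because their levels differed between genotypes, Psmd14 because its difference between genotypes in the acLDL arrays was the largest positive one among the members, and Psmb5 and Psmb6, both catalytic subunits, because they hold the antioxidant element that the NRF1 route uses. Each is given 5′ to 3′ on its gene's strand up to the base before the start, with the motif letters found in capitals. The capitals mark an ETS site in Psme4, a CCAAT box on the other strand in Psmd14, and an antioxidant element in Psmb5 and Psmb6, while the window of Psmd13 held none of the 3 motifs.
Psme4, chr11:30771575-30771774, plus strand: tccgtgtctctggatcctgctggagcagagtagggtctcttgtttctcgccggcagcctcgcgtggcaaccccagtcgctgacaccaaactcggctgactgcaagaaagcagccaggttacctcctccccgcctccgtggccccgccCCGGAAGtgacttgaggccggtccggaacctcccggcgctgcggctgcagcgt
Psmd13, chr7:140882194-140882393, plus strand: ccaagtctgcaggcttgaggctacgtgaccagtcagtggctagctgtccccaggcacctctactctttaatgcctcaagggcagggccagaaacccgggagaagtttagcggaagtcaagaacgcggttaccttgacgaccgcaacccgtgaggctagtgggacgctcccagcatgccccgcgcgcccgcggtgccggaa
Psmd14, chr2:61711494-61711693, plus strand: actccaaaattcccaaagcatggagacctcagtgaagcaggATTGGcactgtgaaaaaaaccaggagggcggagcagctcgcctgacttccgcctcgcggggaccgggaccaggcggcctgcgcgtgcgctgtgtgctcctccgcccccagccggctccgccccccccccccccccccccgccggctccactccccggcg
Psmb5, chr14:54617996-54618195, minus strand: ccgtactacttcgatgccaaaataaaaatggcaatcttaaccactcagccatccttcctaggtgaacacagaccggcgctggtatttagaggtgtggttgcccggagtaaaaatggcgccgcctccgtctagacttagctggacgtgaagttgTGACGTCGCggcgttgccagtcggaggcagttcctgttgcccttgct
Psmb6, chr11:70525157-70525356, plus strand: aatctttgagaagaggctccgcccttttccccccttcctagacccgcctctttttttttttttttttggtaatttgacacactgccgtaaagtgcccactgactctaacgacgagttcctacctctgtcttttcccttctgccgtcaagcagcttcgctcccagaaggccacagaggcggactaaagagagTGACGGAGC

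For most proteasome genes no difference between genotypes or treatments passed the test. Over the 8 arrays, the range of a member's log2 intensity had a median of 0.48, against 0.49 over all items tested, and 22 of 38 members (57.9%) varied by less than 0.5, against 51.0% of all items. The exceptions in the genotype comparison were Psmb1, lower in KI arrays than in WT arrays, Psme4, higher in KI arrays, and Psmd13, lower in KI on its brighter probe (-0.50) and higher on its dimmer one (0.39). With the treatments pooled, these 3 of 38 members passed a limma adjusted p of 0.05, where 3.39% of all items did (1.33% higher and 2.06% lower). Psmd13 enters this count by its brighter probe. Without Psmc3ip and Psme3ip1, neither of which was called, the calls are 8.33% of 36 genes. The other members had differences on both sides of 0, with a median over all 38 of 0.02 on the log2 scale, against -0.02 over all items. In these bulk samples, fewer cells of a type and less RNA per cell cannot be told apart.

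**Figure D1:**
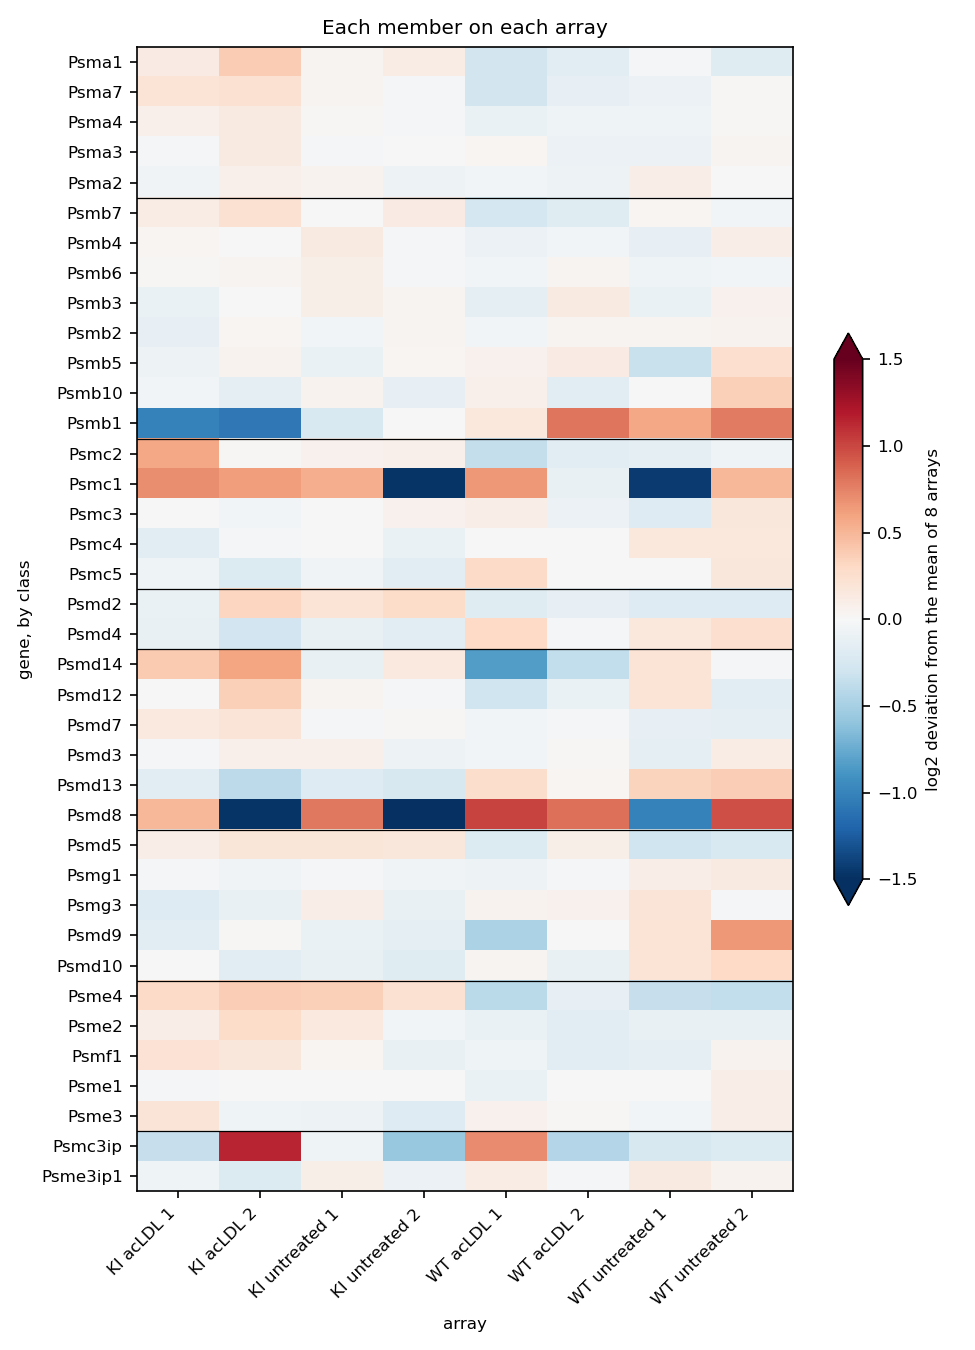
Deviation of each of the 38 members from its own mean log2 intensity, by array, with members in rows by subunit class and the 8 arrays in columns; the colour scale is clipped at 1.5 log2 units. Most rows are pale, Psmb1 is low on the KI acLDL arrays, and Psmc1 and Psmd8 are low on arrays of different groups.

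Psmb1, a beta ring subunit with no catalytic site, had log2 intensities of 8.62 and 8.56 in the KI acLDL arrays, 9.40 and 9.62 in the KI untreated arrays, 9.79 and 10.43 in the WT acLDL arrays, and 10.20 and 10.41 in the WT untreated arrays. All 4 KI arrays lay below all 4 WT arrays, and the KI acLDL arrays were the lowest. In the deposited intensities the values were 349.4, 333.3, 630.9 and 744.6 in the KI arrays and 839.2, 1331.3, 1136.2 and 1316.6 in the WT arrays, in the same order of treatments. With the treatments together, KI arrays averaged 9.05 ± 0.54 and WT arrays 10.21 ± 0.30 (SD, n = 4 each). The difference was -1.16 on the log2 scale (SE 0.14, 95% interval -1.49 to -0.83), a 2.23-fold lower level, with a limma adjusted p of 0.0335. In the acLDL arrays alone Psmb1 fell by 1.52 on the log2 scale in KI against WT (SE 0.20, 2.86-fold, limma adjusted p = 0.0400). It was the 1 member called there, where 0.216% of all items were called and 0.0589% were called lower. In the untreated arrays the difference was -0.80 (SE 0.20), with a limma adjusted p of 0.199.

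Psmd13, a structural subunit of the lid, was measured by a pair of probes that went opposite ways. On the brighter probe, which entered the fit, the log2 intensities were 12.14 and 11.93 in the KI acLDL arrays, 12.13 and 12.09 in the KI untreated arrays, 12.58 and 12.35 in the WT acLDL arrays, and 12.65 and 12.69 in the WT untreated arrays. The KI arrays all lay below the WT arrays, by -0.50 (SE 0.09, 95% interval -0.70 to -0.29, 1.41-fold lower, limma adjusted p = 0.0443). On the dimmer probe the values were 9.71 and 9.83 in the KI acLDL arrays, 9.77 and 9.87 in the KI untreated arrays, 9.33 and 9.40 in the WT acLDL arrays, and 9.39 and 9.50 in the WT untreated arrays. Here the KI arrays all lay above the WT arrays. When each of 11819 probes was tested on its own, the dimmer probe's difference was 0.39 (SE 0.08, limma adjusted p = 0.0439) and the brighter probe's was -0.50 (limma adjusted p = 0.0430). The direction for Psmd13 thus depends on the probe, and no probe sequence was used here to place either on a transcript.

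Psme4, an activator that caps the core particle in the nucleus, had 8.72 and 8.80 in the KI acLDL arrays, 8.78 and 8.66 in the KI untreated arrays, 8.02 and 8.30 in the WT acLDL arrays, and 8.09 and 8.06 in the WT untreated arrays. The genotypes did not overlap, and the acLDL effect was 0.04 in KI and 0.09 in WT. Psme4 was higher in KI by 0.62 on the log2 scale (SE 0.09, 95% interval 0.42 to 0.83, 1.54-fold, limma adjusted p = 0.0380). Its differences were close in the untreated arrays (0.65) and in the acLDL arrays (0.60), with limma adjusted p of 0.199 and 0.0837. A further Psme4 probe was above noise on 0 arrays.

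The 3 calls with the treatments together depend on settings and on single arrays. With no filter on dim items, or with no background correction, 0 members were called with the treatments together and 0 in the acLDL arrays, where fitting only the groups compared also gave 0. Leaving out any KI array or any untreated WT array left 0 of the 38 members called. Without WT acLDL replicate 1 only Psmb1 was called, and without WT acLDL replicate 2 there were 6 calls, which added Psmd14, Psmd4 and Psmd5. In these fits the differences lay between -1.32 and -0.997 for Psmb1, -0.56 and -0.44 for Psmd13 on its brighter probe, and 0.55 and 0.69 for Psme4. Their signs could not turn, because for each gene all KI arrays lay on the same side of all WT arrays. For the acLDL arrays alone, Psmb1 stayed a call only when WT acLDL replicate 1 was left out.

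**Figure D2:**
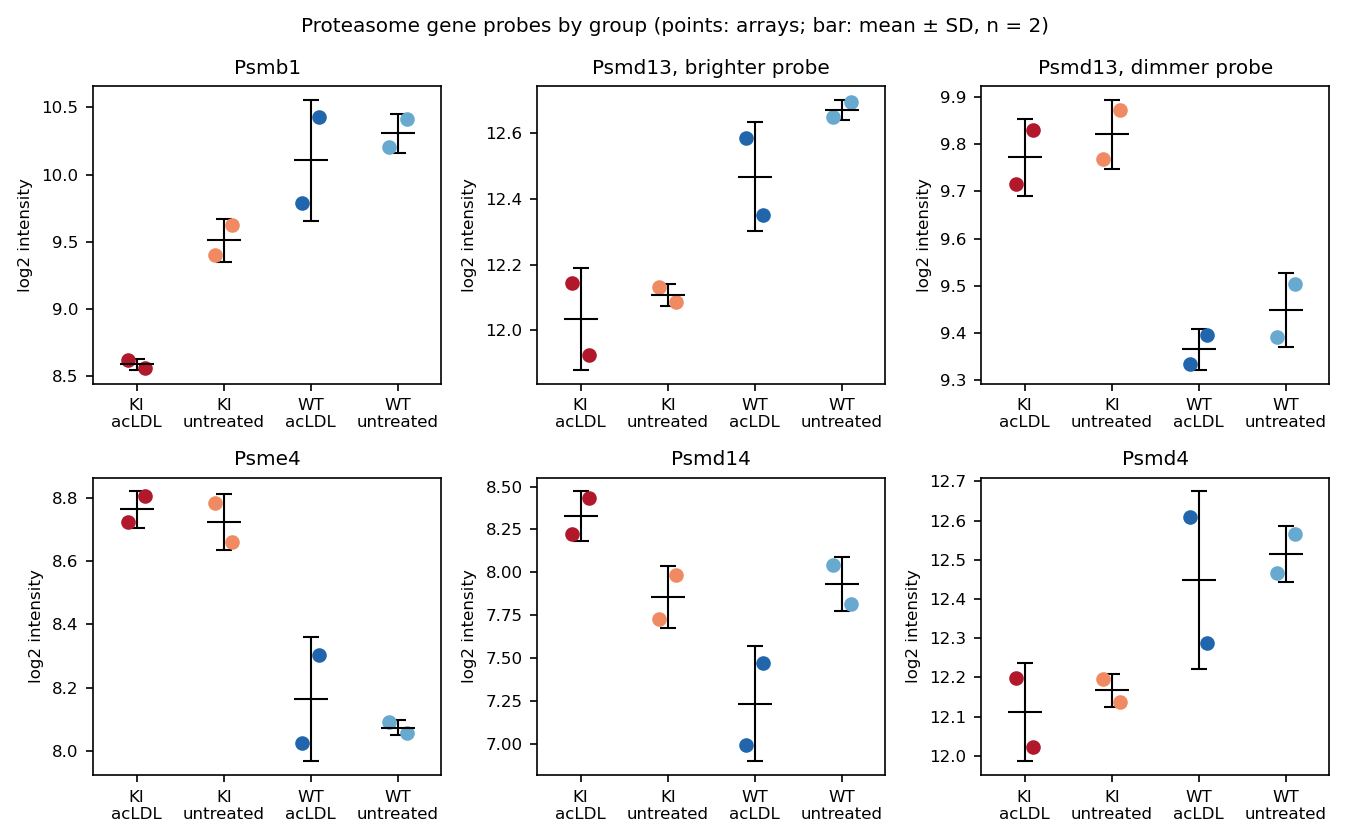
Log2 intensity on each array (points) with the group mean and SD (bar, n = 2) for Psmb1, both probes of Psmd13, Psme4, Psmd14 and Psmd4, in KI acLDL, KI untreated, WT acLDL and WT untreated arrays. The Psmd13 probes stand in opposite order, and Psmb1 lies lowest in the KI acLDL arrays, at 8.62 and 8.56.

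Neutrophil markers also differed between KI and WT, mostly in the acLDL arrays. Of 5 listed, 4 are on the array and 3 were tested. Each sum given here is the log2 of the summed intensities of a list, so its brightest genes lead it. The neutrophil sums lay between 12.06 and 12.30 in the KI acLDL arrays and 11.28 and 11.51 in the KI untreated arrays. They lay between 10.45 and 10.51 in the WT acLDL arrays and 11.25 and 11.28 in the WT untreated arrays. S100a8 and S100a9 were both called higher in KI, and Ngp, a defining granule gene, was above noise on 0 arrays. Of 4 adipocyte markers on the array, 1 was above noise, and this gene, Adipoq, lay between 8.02 and 9.53 in the KI arrays and between 5.98 and 8.79 in the WT arrays. Of 6 markers of T, B and NK cells on the array, 5 were tested. Their sums lay between 10.50 and 10.71 in the KI acLDL arrays, 10.52 and 10.74 in the KI untreated arrays, 10.26 and 10.36 in the WT acLDL arrays, and 10.81 and 10.86 in the WT untreated arrays. All 5 were on the lower side with acLDL in WT, with a median of -0.59, and the WT acLDL arrays are also those where Psmd14 is lowest. Macrophage sums over 7 genes lay between 14.82 and 15.28 in the KI arrays and between 14.60 and 14.93 in the WT arrays. These sums are led by Lyz2, the brightest of the list. Gene by gene, 3 macrophage markers were higher and 4 lower in KI, with a median of -0.02. Endothelial sums over 4 genes lay between 14.81 and 14.91 in the KI arrays and between 14.66 and 14.99 in the WT arrays, and Tek of that list differed by 0.37 (limma adjusted p = 0.102). The red cell gene Alas2 differed by 0.95 between KI and WT (limma adjusted p = 0.0885) and by 1.25 in the acLDL arrays, with Hba-a1 at -0.03. All 4 striated muscle genes were on the higher side in KI, with a median of 0.47 and sums between 11.35 and 13.84 in the KI arrays and between 10.22 and 13.17 in the WT arrays. Lung epithelium sums over 8 genes lay between 17.08 and 17.24 in all 4 groups. The part of these cell types in the values of Psmb1, Psmd13, Psme4 and Psmd14 was not tested.

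Psmb1 and Psmd13 were set against the other 36 members. Those had a median difference of 0.04 between KI and WT with the treatments together, from -0.90 for Psmd8 to 0.62 for Psme4, and 28 of them lay within 0.25 of 0. Over all 38 members, 28 (73.7%) lay within 0.25, against 75.4% of all items. In the acLDL arrays the 36 had a median of 0.07, with 24 higher and 12 lower in KI. The 4 KI arrays lay entirely above or below the 4 WT arrays for 12 of 38 members (31.6%), against 14.8% of all items (6.07% higher in KI and 8.71% lower). Of these, Psme4, Psmc2, Psmd2, Psmd5, Psma1, Psme2 and Psmd7 were higher in KI, and Psmb1, Psmd13, Psmd4, Psmc5 and Psmc4 were lower. For Psmd13, Psmc5 and Psmd7 this is the brighter probe. On the dimmer probe of Psmd13 and of Psmc5 all 4 KI arrays lay above all 4 WT arrays. On the dimmer probe of Psmd7 the genotypes overlapped, with 9.49 on KI untreated replicate 1 and 9.54 on WT untreated replicate 2. For Psmc5 the dimmer probe read at least 10.04 in KI and at most 10.02 in WT. At an unadjusted p of 0.05 in limma, 15 of 38 passed (39.5%), where 26.6% of all items did. Without the 2 genes matched by name only, these shares are 33.3% for the groups that did not overlap and 41.7% for the unadjusted p.

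**Figure D3:**
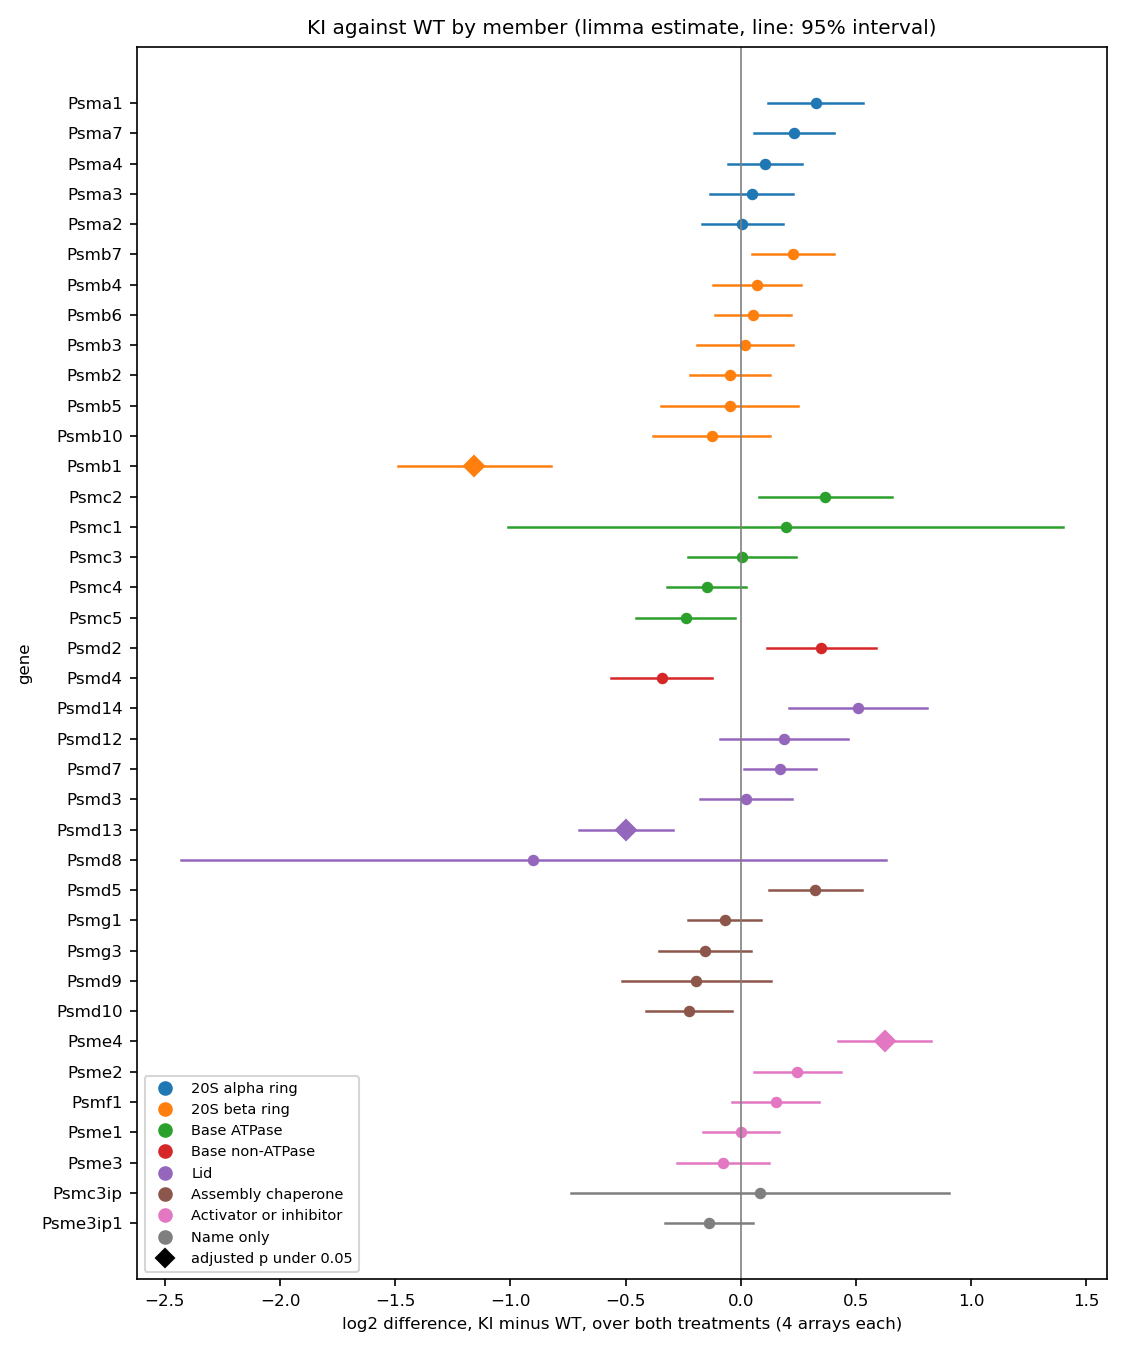
Difference in log2 intensity, KI minus WT with the treatments together, for each of 38 members grouped by subunit class; bars are 95% intervals from limma and diamonds mark the 3 members called. Psmb1 lies at -1.16, Psmd13 at -0.50 on its brighter probe, Psme4 at 0.62, and the widest intervals belong to Psmd8, Psmc1 and Psmc3ip.

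In the core particle, 9 of 13 genes were higher and 4 lower in KI with the treatments together, with a median of 0.05 and 1 call, Psmb1. All 5 alpha ring genes measured were on the higher side, by 0.01 to 0.32, and none was called. Psma1 had 11.02 and 11.28 in the KI acLDL arrays, 10.94 and 11.01 in the KI untreated arrays, 10.63 and 10.74 in the WT acLDL arrays, and 10.87 and 10.72 in the WT untreated arrays. Its genotypes did not overlap, and the difference of 0.32 (SE 0.09) had a limma adjusted p of 0.0738. Psma7 differed by 0.23 with a limma adjusted p of 0.11, while Psma2 differed by 0.01 and Psma3 by 0.05.

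None of the beta ring genes other than Psmb1 was called. With the treatments together, their differences between KI and WT lay between -0.13 for Psmb10, the catalytic subunit induced by interferon, and 0.23 for Psmb7, a catalytic subunit. On its brighter probe Psmb7 differed by 0.39 in the acLDL arrays (SE 0.11, limma adjusted p = 0.119), and the groups did not overlap there. On its dimmer probe, also above noise on all 8 arrays, the difference there was 0.03 (limma adjusted p = 0.914), and the groups overlapped. Psmb4 lay between 12.74 and 12.89 in the KI arrays and between 12.64 and 12.86 in the WT arrays. Psmb6, another catalytic subunit, lay between 11.78 and 11.90 in the KI arrays and between 11.75 and 11.86 in the WT arrays. Psmb2 lay between 11.01 and 11.17 in the KI arrays and between 11.08 and 11.18 in the WT arrays. Psmb5, the subunit that proteasome inhibitors used in the clinic bind, differed by -0.05 (SE 0.13). Psmb4 and the alpha ring gene Psma2 had the highest mean levels of the members above noise on all 8 arrays, 12.76 and 12.71, as read by their own probes.

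The 5 base ATPases had a median difference of 0.01 between KI and WT, with 3 higher and 2 lower and none called. Psmc2 had 7.18 and 6.61 in the KI acLDL arrays, 6.65 and 6.67 in the KI untreated arrays, 6.24 and 6.42 in the WT acLDL arrays, and 6.45 and 6.53 in the WT untreated arrays. The genotypes did not overlap, though the top value came from 1 array, and the difference of 0.37 (SE 0.13) had a limma adjusted p of 0.116. Psmc2 was above noise on 7 arrays, and its deposited intensity on WT acLDL replicate 1, 31.6, was below the noise limit. Psmc5 differed by -0.24 on its brighter probe and by 0.17 on its dimmer one. Psmc4 differed by -0.15 and Psmc3 by 0.01.

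The base scaffold and the ubiquitin receptor stood on opposite sides. Psmd2, a base scaffold that binds shuttle proteins and has the next lowest mean after Psmd12 among the members above noise on all 8 arrays (6.97), had 6.87 and 7.29 in the KI acLDL arrays, 7.17 and 7.25 in the KI untreated arrays, 6.78 and 6.85 in the WT acLDL arrays, and 6.78 and 6.77 in the WT untreated arrays. It was higher on every KI array, by 0.35 with a limma adjusted p of 0.0864. Psmd4, a receptor for ubiquitin chains, had 12.20 and 12.02 in the KI acLDL arrays, 12.20 and 12.14 in the KI untreated arrays, 12.61 and 12.29 in the WT acLDL arrays, and 12.47 and 12.57 in the WT untreated arrays. Every KI array was below every WT array, by -0.34 (SE 0.10, limma adjusted p = 0.0758). Neither was called.

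Among the 6 lid genes, 4 were higher and 2 lower in KI, with a median of 0.10. Psmd14, the deubiquitinase that cuts the chain off, had 8.23 and 8.43 in the KI acLDL arrays, 7.73 and 7.98 in the KI untreated arrays, 7.0 and 7.47 in the WT acLDL arrays, and 8.04 and 7.82 in the WT untreated arrays. The KI acLDL arrays were the highest and the WT acLDL arrays the lowest, while the untreated arrays of the genotypes overlapped. In the acLDL arrays the difference between KI and WT was 1.09 (SE 0.18, 2.13-fold) with a limma adjusted p of 0.0621, which missed the threshold. With the treatments together it was 0.51 (limma adjusted p = 0.0647). As with the neutrophil sums, the KI acLDL arrays stood highest and the WT acLDL arrays lowest, and the part of those cells in this was not tested. Psmd7, the inactive partner of Psmd14, had 11.03 and 11.07 in the KI acLDL arrays, 10.86 and 10.90 in the KI untreated arrays, 10.84 and 10.86 in the WT acLDL arrays, and 10.75 and 10.74 in the WT untreated arrays on its brighter probe. Its genotypes only just did not overlap. It differed by 0.17 and 0.32 on its 2 probes, and on the dimmer one the genotypes overlapped. Psmd3, a lid scaffold, differed by 0.02 (SE 0.09), and Psmd12, of lowest mean (6.65) among the members above noise on all 8 arrays, by 0.19.

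Assembly chaperones were on the lower side in 4 of 5 cases with a median of -0.15, and none was called. Psmd5, a chaperone of the base, was the exception at 0.32 (limma adjusted p = 0.0722). It had 7.48 and 7.56 in the KI acLDL arrays, 7.56 and 7.55 in the KI untreated arrays, 7.17 and 7.47 in the WT acLDL arrays, and 7.07 and 7.14 in the WT untreated arrays. The lowest KI array and the highest WT array differed by less than the spread of the WT acLDL pair. Psmd10, another base chaperone, had 9.07 and 8.90 in the KI acLDL arrays, 8.96 and 8.89 in the KI untreated arrays, 9.11 and 8.96 in the WT acLDL arrays, and 9.28 and 9.37 in the WT untreated arrays on its brightest probe. Only the WT untreated arrays stood clear of the others. Between KI and WT it gave -0.22, 0.02 and 0.32 on its 3 probes. Psmg1 and Psmg3, chaperones of the core particle, differed by -0.07 and -0.15. Of the activators, Psme1 and Psme2, the interferon-induced pair, differed by 0.00 and 0.25, Psme3 by -0.08, and the inhibitor Psmf1 by 0.15.

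The disagreement between probes was not limited to Psmd13. Of the 38 members, 30 rested on 1 probe, and 8 had several above noise, 17 probes in all. In 4 of these 8 genes the probes had differences of opposite sign between KI and WT: Psmd13, Psmc5, Psmd10 and Psme1, the last with values of 0.00 and -0.14. Psmb10, Psmb7, Psmd7 and Psmd9 had probes of the same sign. Both Psmd13 probes passed the threshold, and no other probe of these 8 genes did. Psmb1 and Psme4 each rested on 1 probe, so no other probe bears on their differences.

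**Figure D4:**
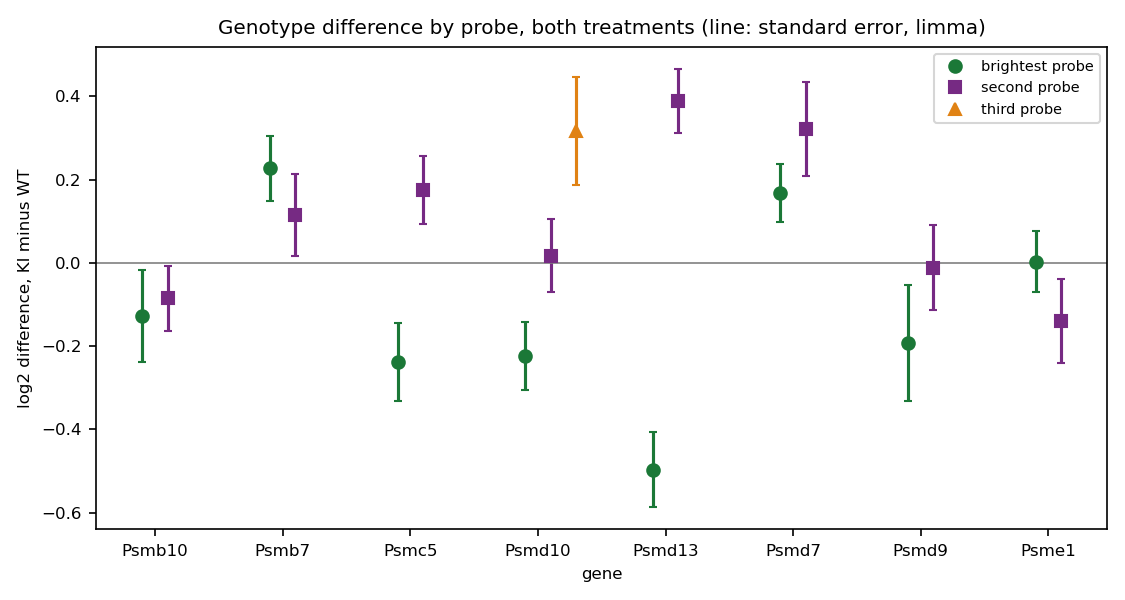
Difference in log2 intensity, KI minus WT with the treatments together, for each of 17 probes of the 8 members with several probes; bars are standard errors. The Psmd13 probes lie at -0.50 and 0.39, while the Psmd7 probes both lie above 0.

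Treatment with acLDL called no member in either genotype. In KI arrays, acLDL against untreated gave 21 members higher and 17 lower with a median of 0.02, and 0 were called by limma, where 0.0196% of all items were. At an unadjusted p of 0.05, 2 members passed (6.46% of all items did). In WT arrays 13 were higher and 25 lower with a median of -0.05, and 0 were called by limma, where 0.177% of all items were. At an unadjusted p of 0.05, 3 members passed (12% of all items did). Groups did not overlap for 11 members in KI (39% of all items) and for 14 in WT (41.8% of all items).

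The members of largest effect are given with their values. In KI, Psmb1 differed by -0.92 between acLDL and untreated arrays (SE 0.20, limma adjusted p = 0.525), and in WT by -0.20. Psmc1, whose KI untreated arrays stood far apart, differed by 1.13 in KI (SE 0.74, limma adjusted p = 0.814), and by 0.12 without KI untreated replicate 2. Psmd14 differed by 0.47 in KI (limma adjusted p = 0.766) and by -0.69 in WT (limma adjusted p = 0.231). Psmf1, the inhibitor, had 9.89 and 9.84 in the KI acLDL arrays, 9.70 and 9.56 in the KI untreated arrays, 9.61 and 9.52 in the WT acLDL arrays, and 9.54 and 9.72 in the WT untreated arrays. Its acLDL effect in KI was 0.23, and those of Psmg3 (-0.15) and Psmb3, a beta ring subunit (-0.11), were the lowest after Psmb1 among members whose groups did not overlap. Psmd9, a base chaperone, had 6.49 and 6.67 in the KI acLDL arrays, 6.55 and 6.51 in the KI untreated arrays, 6.17 and 6.66 in the WT acLDL arrays, and 6.85 and 7.30 in the WT untreated arrays. It was highest in the WT untreated arrays and overlapped elsewhere. In WT, Psmd9 differed by -0.66 (limma adjusted p = 0.275) and Psmd10 by -0.29, while Psmd5 (0.21), Psmd7 (0.10) and Psmd2 (0.04) had the highest values among members whose groups did not overlap. The brighter Psmd9 probe was above noise on 7 arrays, and its deposited intensity on WT acLDL replicate 1, 28, was below the noise limit. The dimmer Psmd9 probe had the opposite sign in WT, 0.31, and was above noise on 3 arrays. Psmd13 differed by -0.07 in KI and by -0.20 in WT. All 5 alpha ring genes were higher with acLDL in KI (0.02 to 0.21) and lower with acLDL in WT (-0.17 to 0.00), and none of these 10 values was called. These comparisons share arrays with the genotype comparisons, so the values are not independent of them.

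**Figure D5:**
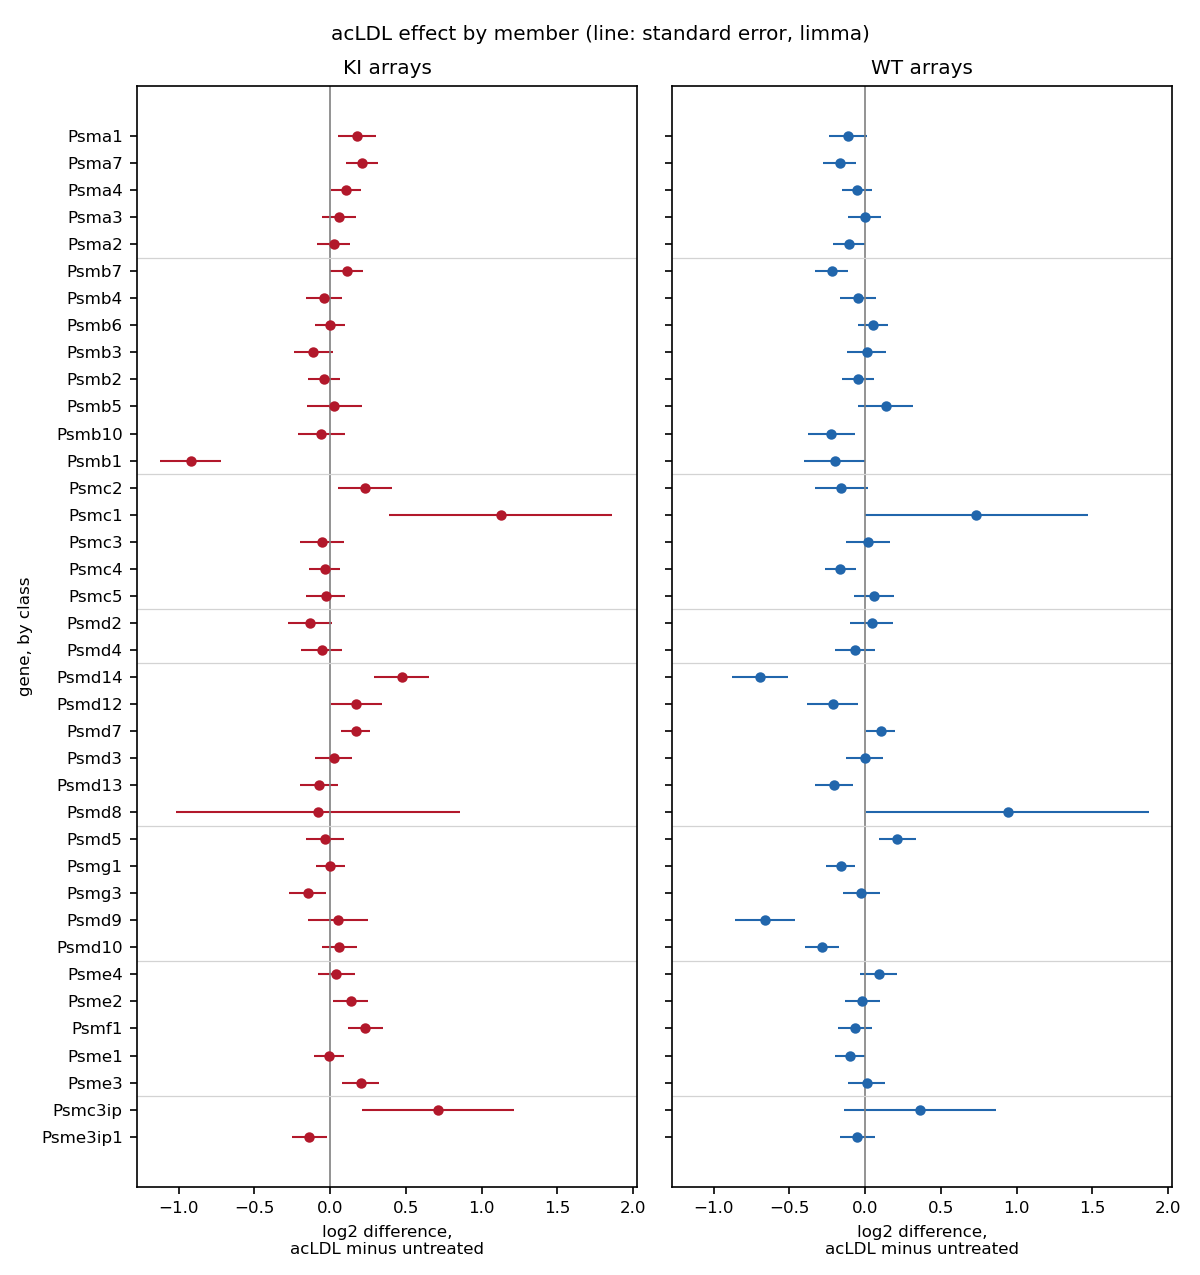
Effect of acLDL on each member, acLDL minus untreated in log2 intensity, in KI arrays (left) and WT arrays (right), with standard errors from limma. No member was called in either genotype, and Psmd14 lies at 0.47 in KI and at -0.69 in WT.

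The genotypes were also compared within each treatment. In the acLDL arrays 24 members were higher and 14 lower in KI with a median of 0.06, and the groups did not overlap for 23 of 38 (60.5%), against 55.1% of all items. In the untreated arrays 18 were higher and 20 lower with a median of 0.00, the groups did not overlap for 18, against 49.4% of all items, and 0 were called by limma, where 0.00982% of all items were. There 8 members passed an unadjusted p of 0.05, against 15% of all items. The largest differences in the untreated arrays were Psme4, Psmd5 (0.45) and Psmd2 (0.44) on the higher side and Psmb1, Psmd13 (-0.56) and Psmd9 (-0.55) on the lower side. In the acLDL arrays they were Psmd14, Psme4 and Psmc2 (0.56) on the higher side. On the lower side they were Psmb1, Psmd8 and Psmd13 (-0.43). The values of Psmd13 and Psmd9 here are from the brighter probe of each. On its dimmer probe Psmd13 gave 0.37 in the untreated arrays and 0.41 in the acLDL arrays. The dimmer Psmd9 probe, above noise on 3 arrays, gave 0.20 in the untreated arrays.

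The effect of acLDL in KI minus that in WT was tested for each member, and 0 of 38 were called, where 0.0491% of all items were. It was above 0 for 26 members and below 0 for 12, with a median of 0.11 against -0.02 over all items, and 4 passed an unadjusted p of 0.05 in limma (8.59% of all items did). The highest values were Psmd14 at 1.17 (SE 0.26, limma adjusted p = 0.377), Psmd9 at 0.71 (limma adjusted p = 0.574) and Psmc1 at 0.39 (SE 1.04). The lowest were Psmd8 at -1.02 (SE 1.32), Psmb1 at -0.72 (SE 0.29, limma adjusted p = 0.577) and Psmd5 at -0.25. The dimmer probe of Psmd9 gave -0.42, of opposite sign. All 5 alpha ring genes were above 0, by 0.06 to 0.38, which follows from the signs of their acLDL effects in KI and WT given above.

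Psmd8 and Psmc1 varied most of the members, by 2.62 and 2.17 over the 8 arrays, where 1.0% of all items varied by more than 2. Psmd8, a lid subunit, had 11.12 and 9.15 in the KI acLDL arrays, 11.42 and 9.01 in the KI untreated arrays, 11.64 and 11.45 in the WT acLDL arrays, and 9.62 and 11.60 in the WT untreated arrays. Psmc1, a base ATPase, had 8.15 and 8.08 in the KI acLDL arrays, 7.99 and 5.98 in the KI untreated arrays, 8.11 and 7.34 in the WT acLDL arrays, and 6.02 and 7.96 in the WT untreated arrays. Both were low on KI untreated replicate 2 and WT untreated replicate 1, and Psmd8 was also low on KI acLDL replicate 2. The low values of Psmc1 were below the noise limit, with deposited intensities of 19.2 on KI untreated replicate 2 and 20.9 on WT untreated replicate 1. In 3 of 4 groups the 2 arrays stood apart for Psmd8, and in the WT acLDL group they were close. The difference of Psmd8 between KI and WT in the acLDL arrays, -1.41 (SE 0.93), had a limma adjusted p of 0.405. Psmc3ip, the recombination cofactor, was high on KI acLDL replicate 2 (8.90) and WT acLDL replicate 1 (8.47), and lay between 7.19 and 7.69 on the other arrays. Psme3ip1 differed by -0.14 between KI and WT.

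Genes that act with the proteasome but lie outside the symbol rule were counted as well. Of 8 proteasome-bound or assembly factors tested, 0 were called in any of the 6 comparisons. Txnl1, a thioredoxin-like protein bound to the lid, was above noise on 3 arrays, KI acLDL replicate 1 (7.85) and both WT acLDL arrays (8.06 and 7.94). Its acLDL effect in WT was 2.83 (SE 0.69, limma adjusted p = 0.220). Of 4 genes of the NRF1 route, Nfe2l2, a related factor that also binds antioxidant elements, was called with the treatments together, higher in KI by 0.59 (SE 0.12, 1.51-fold, limma adjusted p = 0.0458). Nfe2l1 itself differed by -0.15 (limma adjusted p = 0.236) and was not called in any comparison. Of 6 genes for ubiquitin supply and shuttles, Ubqln4, a shuttle, was called lower in KI, at -0.34 (SE 0.07, limma adjusted p = 0.0490). Of 8 immunoproteasome and peptide loading genes 0 were called by limma, with a median of -0.06 between KI and WT. The inducible catalytic subunits Psmb8 and Psmb9 differed by 0.13 and -0.24, with limma adjusted p of 0.441 and 0.215.

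Genes within 3 places of the 3 called members on the chromosome were looked at, a choice made after the values were seen. Beside Psmb1, Tbp differed by 0.22 (limma adjusted p = 0.198) between KI and WT and Pdcd2 by -0.12. Beside Psmd13, Sirt3 differed by 0.02 and Cox8b by 0.71 (SE 0.42, limma adjusted p = 0.322). Beside Psme4, Sptbn1 differed by 0.40 (limma adjusted p = 0.0563) and Erlec1 by -0.29. None of the neighbours named here was called.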

How the data were processed

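The table used is the deposited one of processed values, linear intensities made by the authors with BeadStudio per the submitters' processing notes (version not given in the sources used here). Between arrays the sorted values differ by at most 1.4 units and many are below 0, so they were background subtracted and quantile normalized, as inferred from the values. A second table, whose 16 columns of per-sample values carry names that match no label, was not used.

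Intensities were corrected with limma's normexp (offset 16) and log2 transformed. Probes above 3 times the noise (12.2 units, taken as the root mean square of all values below 0) on at least 2 arrays were kept. A gene took its probe of highest mean. Symbols came from an annotation of another platform than the labels name, joined by probe identifier: 20984 probes have 1 symbol, 1 has several and 3628 none. A model over all 8 arrays was fitted in limma 3.58.1 (R 4.3.3), with 4 group means, 6 comparisons and 4 residual degrees of freedom, and p-values were adjusted by Benjamini-Hochberg over all 10187 items. Folds are on the log2 scale with the offset, which compresses dim probes. An exact permutation test of 4 arrays against 4 cannot give a p below 0.0286, and of 2 against 2 none below 0.333. The number of arrays limits the precision.

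The members and the gene lists were chosen with earlier results of these data known. Named members are Psmb1, Psmd13, every member called, and in each comparison up to 3 of the largest rises and up to 3 of the largest falls whose groups do not overlap (for the difference of effects, with no condition on overlap), and the 2 highest and 2 lowest in level. Other members are named with a level or difference alone. For lists of non-members, up to 3 of the smallest p were named. Psme3ip1 was set apart after the data were seen.

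On simulated data with 200 changed genes among 10187 items, the test of KI against WT with the treatments together called 65.7% of genes changed 1.5-fold, 91.3% changed 2-fold and 98.2% changed 4-fold, with 10.8 other calls per set. For KI against WT in the acLDL arrays it called 29.3%, 73.4% and 97.0% of these, with 5.8 other calls per set. The simulated noise was normal and independent between genes. In the data, 22 items were called in the acLDL arrays and 345 with the treatments together. With so few calls the adjusted threshold is stricter in the acLDL data, so the shares for those arrays may be too high. The fit was repeated with each array left out, with a replicate block, on only the groups compared, with a variance trend, on every probe separately, with no filter or one on all 8 arrays, with median centring or cyclic loess, without background correction and at an offset of 50. Plots were drawn with matplotlib 3.10.9.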

Additional observations from a re-analysis of the deposited data

Results flagged for a closer look

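For each member the 4 arrays of a genotype were searched for an array standing apart from the other 3, by its gap to the nearest of them over the whole range (Dixon's 95% critical value). Of 76 such checks 9 passed, where chance passes about 5%. The gaps were large for Psmd8 and Psmc1. Psmc1 lay at 5.98 on KI untreated replicate 2, with the nearest KI array at 7.99. Psmd8 lay at 9.62 on WT untreated replicate 1, with the nearest WT array at 11.45. The other gaps were small in log2 intensity. Psmc2 was high on KI acLDL replicate 1, at 7.18 against 6.67 on the nearest KI array, and Psmd12 on KI acLDL replicate 2, at 7.02 against 6.69. Psma3 was high on KI acLDL replicate 2, at 11.93 against 11.80, and Psmd5 was low on KI acLDL replicate 1, at 7.48 against 7.55. Among WT arrays, Psmb6 (11.86 against 11.77) and Psmd2 (6.85 against 6.78) were high on WT acLDL replicate 2, and Psmb2 was low on WT acLDL replicate 1, at 11.08 against 11.17.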

How the results depend on the processing

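Under the alternatives tried, 673 values of named members kept their direction and their side of the threshold, 36 no longer passed it, 5 came to pass it and 11 changed sign. A value could stop passing only where it had been called: Psmb1 in the acLDL arrays, and Psmb1, Psmd13 and Psme4 with the treatments together. Most of the 673 had not been called, so their number does not measure how well the calls held. With the treatments together, 3 members were called at an offset of 50, with cyclic loess, with median centring and with only the groups compared. The count was 0 with no background correction and with no filter, 4 with a filter on all 8 arrays, 4 with every probe on its own and 5 with a variance trend, and lay between 0 and 6 when 1 array was left out. In the acLDL arrays it was 1 as reported, 2 at an offset of 50, 0 with no background correction, 0 with no filter, 2 with the filter on all 8 arrays, 2 with the variance trend, 0 with only the groups compared, and 0 to 1 when 1 array was left out. The cause of these shifts was not tested. Same-numbered arrays did not deviate alike in all groups. Their deviations correlated at 0.19 to 0.29 among the WT acLDL, KI untreated and KI acLDL groups. Between each of these and the WT untreated group they correlated at -0.31 to -0.06. With the replicate block 3 members were called with the treatments together. A shift shared by arrays of different replicate numbers was not tested, and that block could not remove it. Medians over members moved by less than the spread except the difference of acLDL effects with the filter on all 8 arrays (0.066) and some fits with 1 array left out. These lay between -0.10 and -0.020 for acLDL in WT, -0.053 and 0.045 for KI against WT untreated, -0.022 and 0.082 with the treatments together, and 0.024 and 0.16 for the difference of effects. Signs turned on the dimmer probe of Psmd13 (KI against WT untreated 0.37, acLDL 0.41, together 0.39) and of Psmd9 (acLDL in WT 0.31, KI against WT untreated 0.20, difference of effects -0.42). With 1 array left out, the difference of effects ran from -0.61 to 1.40 for Psmc1 and from -2.22 to 0.18 for Psmd8, the acLDL effect of Psmb1 in WT from -0.52 to 0.12, and that of Psmd13 in KI from -0.18 to 0.036. With 1 array left out, the lone array of a group is assumed to vary like the other groups.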
